A study of Mus musculus with 4 samples.

Results

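The genes described here are 10 markers of the stem cells at the base of the mouse small intestinal crypt, other than Lgr5: Ascl2, Olfm4, Smoc2, Igfbp4, Tnfrsf19, Rgmb, Slc12a2, Prom1, Msi1 and Cdca7. They were chosen by name, with earlier results of these data known. Every probe that the array design assigns to one of them was taken, which gave 18 probes of 41174 on the array. All 10 genes were among the 15538 genes with a testable signal, through 16 of their 18 probes. RNA of freshly isolated small intestinal crypts was compared with RNA of organoids, closed epithelial structures grown in a gel for 1 week from another portion of the same crypts, in a medium to which R-spondin (500 ng/ml), Noggin (100 ng/ml) and EGF (10 to 50 ng/ml) were added. The crypts came from 2 mice, whose strain, genotype and age are not given in the sources used here. Crypt and organoid RNA of a mouse were labelled in different dyes and hybridised together on a two-colour Agilent array, then again with the dyes exchanged, giving 4 arrays. The 2 arrays of a mouse repeat the same RNAs, so n = 2 mice throughout.

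Stem cells at the crypt base lie between Paneth cells, divide continuously and are maintained by Wnt signalling. Lgr5 encodes a receptor for R-spondin, a factor that strengthens Wnt signals and was part of the culture medium. The 10 markers differ in specificity: Ascl2, Olfm4 and Smoc2 are closely tied to the stem cell, whereas Slc12a2, Prom1, Msi1 and Cdca7 are also found in the dividing progeny higher in the crypt. In RNA of a whole crypt or organoid, fewer cells of a type and less RNA per cell cannot be told apart.

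The markers did not move together. Smoc2 and Slc12a2 were called higher in organoids, by 1.94-fold and 1.63-fold, and no marker was called lower. The other 8 did not pass the test, limma's moderated test on the 2 mouse values against 0 with Benjamini-Hochberg adjustment over all genes tested and a threshold of 0.05. Of all genes tested, 5.43% were called higher and 5.49% lower, beside 2 and 0 of the 10 markers. At an unadjusted p under 0.05, limma gave 4 markers higher and 1, Tnfrsf19, lower, where 14.4% and 13.2% of all genes were. A fit that took the 4 arrays as replicates with a dye effect called 4 markers higher and 2 lower, and 12.6% and 11.3% of all genes. Slc12a2 lost its call in 5 of 11 alternative analyses with a test (adjusted p from 0.055 to 0.256) and Smoc2 in 2. The median log2 ratio of organoid over crypt was 0.14 over the markers and 0.02 over all genes. By mouse, the markers' median was -0.12 in mouse 1 and 0.23 in mouse 2, so its direction differed between the mice. Among the single markers, only Olfm4 and Igfbp4 had opposite signs in the 2 mice. Lgr5 itself was at 2.29 ± 0.05 (SD, n = 2; adjusted p = 0.00202), at the one of its 2 probes that was above background (the other, at 0.09 ± 0.09, was so in 0 of 8 channels). Its lowest ratio on any array, 2.02, was above the highest ratio of any marker on any array, 1.08. In the mouse means, the difference of a marker from Lgr5 ran from -1.34 (Smoc2) to -2.67 (Tnfrsf19) on the log2 scale; these differences were not tested.

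**Figure D1:**
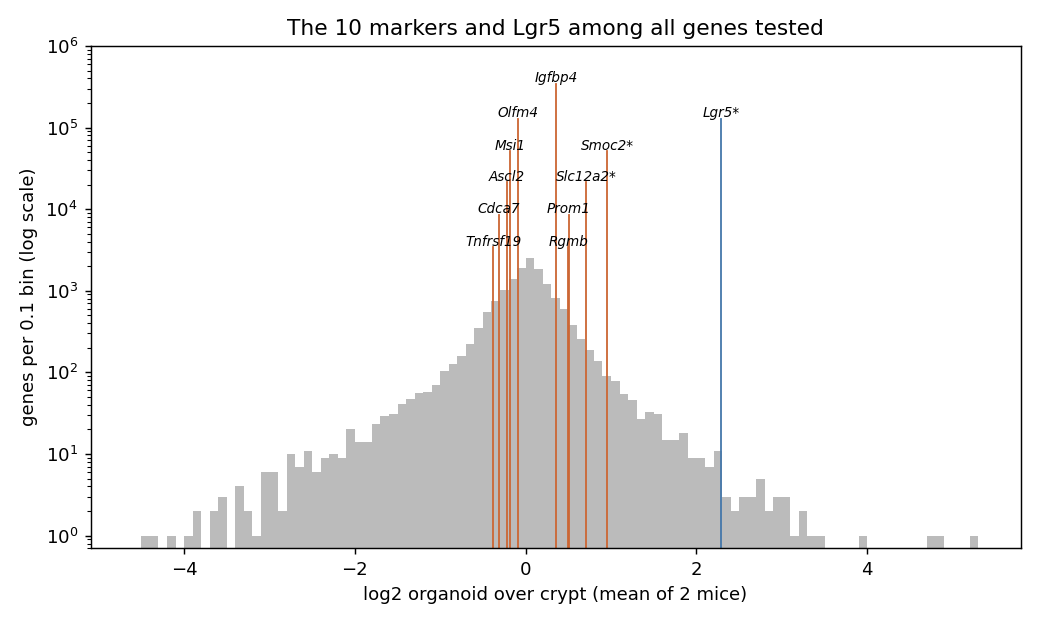
Number of genes (log axis) by log2 ratio of organoid over crypt, mean of 2 mice, in bins of 0.1 for all 15538 genes tested, with a line at each of the 10 markers (orange) and at Lgr5 (blue); an asterisk marks an adjusted p under 0.05, and the height of a line has no meaning. The markers lie between -0.38 and 0.95, on both sides of 0, and Lgr5 at 2.29.

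Counts over arrays were taken at each gene's brightest tested probe. Of the markers, 4 (Smoc2, Slc12a2, Prom1 and Rgmb) had a ratio above 0 on all 4 arrays, where 25.4% of all genes did. Another 4 (Ascl2, Tnfrsf19, Cdca7 and Msi1) were below 0 on all 4 arrays, where 21.7% of all genes were. Olfm4 and Igfbp4 had both signs. The other tested probes of Rgmb and Msi1 were each above 0 on 2 of 4 arrays. In single channels of the brightest probes, all 4 organoid levels lay above all 4 crypt levels for Smoc2, Slc12a2 and Rgmb. The same held for 17.3% of all genes. All 4 organoid levels lay below all 4 crypt levels for Ascl2, and for 16.4% of all genes. A level here is the log2 intensity of a channel after normalization within and between arrays, which compares the tissues for 1 probe but not 1 probe with another.

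Ascl2 encodes a transcription factor of the basic helix-loop-helix type that is itself a Wnt target and sets the stem cell programme. Its single probe (A_51_P469147, mm9 chromosome 7, 150154439 to 150154498, minus strand) had crypt levels of 9.85 and 9.32 in mouse 1 and 9.40 and 9.33 in mouse 2. In organoids they were 9.25 and 9.29 in mouse 1 and 9.27 and 9.20 in mouse 2. The organoid levels were all below the crypt levels, by little for 3 of the 4 crypt levels, and the highest crypt level came from the array of mouse 1 with the crypt in Cy3. The log2 ratio was -0.22 ± 0.12 (adjusted p = 0.364), with a 95% interval from -0.56 to 0.12. In base composition, 63.3% of the probe's letters are G or C, more than in 99.6% of all probes. Of the E proteins that pair with factors of this type, Tcf3 was at -0.02 ± 0.00 and Tcf12 at 0.11 ± 0.14.

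Of the 3 markers with secreted products, Smoc2 alone passed the test, and the mice parted ways for Olfm4 and Igfbp4. Smoc2, a matrix protein that binds calcium, rose and was the highest of the 10. It has 2 probes, which lie near each other on mm9 chromosome 17 (plus strand) and both rose; the first 30 bases of each are shown, since they are 2 separate readings of the one marker called most often.
Smoc2 A_52_P646762, 14540516 to 14540575: atgaacggctgactactcaagacagttcct
Smoc2 A_51_P213045, 14540647 to 14540706: gatatttaaacggactgttgtgatctgtga

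At the brighter Smoc2 probe, A_52_P646762, the crypt levels were 12.13 and 12.30 in mouse 1 and 12.30 and 12.23 in mouse 2. In organoids they were 13.21 and 13.36 in mouse 1 and 12.89 and 13.31 in mouse 2. Every organoid level was thus above every crypt level, and the lowest organoid level came from the array of mouse 2 with the organoid in Cy5. The log2 ratio was 0.95 ± 0.17 (adjusted p = 0.0173), with a 95% interval from 0.60 to 1.31. The other probe was at 0.76 ± 0.11 (adjusted p = 0.0292 over all 21923 probes tested), and among all probes 4.48% were called higher and 4.77% lower. Both Smoc2 probes were positive on 4 of 4 arrays. The relative Smoc1, well above background in 3 of 4 crypt and 4 of 4 organoid channels, was at 0.17 ± 0.07 (adjusted p = 0.469).

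Olfm4 encodes a secreted glycoprotein of the olfactomedin family and is an abundant transcript of small intestinal stem cells. Its crypt levels (A_52_P607507, mm9 chromosome 14, 80421398 to 80421457, plus strand) were 13.59 and 13.54 in mouse 1 and 13.36 and 13.65 in mouse 2. Levels in organoids were 13.36 and 13.29 in mouse 1 and 13.59 and 13.55 in mouse 2. The tissues overlapped, and the mice differed in sign: -0.24 in mouse 1 and 0.06 in mouse 2. The log2 ratio was -0.09 ± 0.21 (adjusted p = 0.763), with a 95% interval from -0.45 to 0.28, so a rise of Lgr5's size lies outside it. The second Olfm4 probe, 80421539 to 80421598, was at -0.04 ± 0.24 with the same split between the mice, -0.21 and 0.13.

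Igfbp4 encodes a binding protein for insulin-like growth factors that can also dampen Wnt signals. Its crypt levels (A_52_P257502, mm9 chromosome 11, 98913334 to 98913393, plus strand) were 8.62 and 8.52 in mouse 1 and 8.58 and 8.43 in mouse 2. Organoids gave 8.49 and 8.64 in mouse 1 and 9.04 and 9.42 in mouse 2. The crypt levels of the mice overlapped. Both organoid levels of mouse 2 lay above all crypt levels, and in mouse 1 one organoid level lay just above them and the other among them. Igfbp4 was the marker whose mice differed most, at -0.01 and 0.73, with a mean of 0.36 ± 0.52 (adjusted p = 0.335). Its second probe, 98909591 to 98909650, split the same way, at -0.002 and 0.47 (0.24 ± 0.34). Among the genes of its pathway, Igf1r was at 0.15 ± 0.50 and likewise had opposite signs, -0.20 in mouse 1 and 0.50 in mouse 2; Igf2 was at -0.04 ± 0.15 and Igf1 was too dim to be tested. The related Igfbp2 was at 0.65 ± 0.27 (adjusted p = 0.0605).

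**Figure D2:**
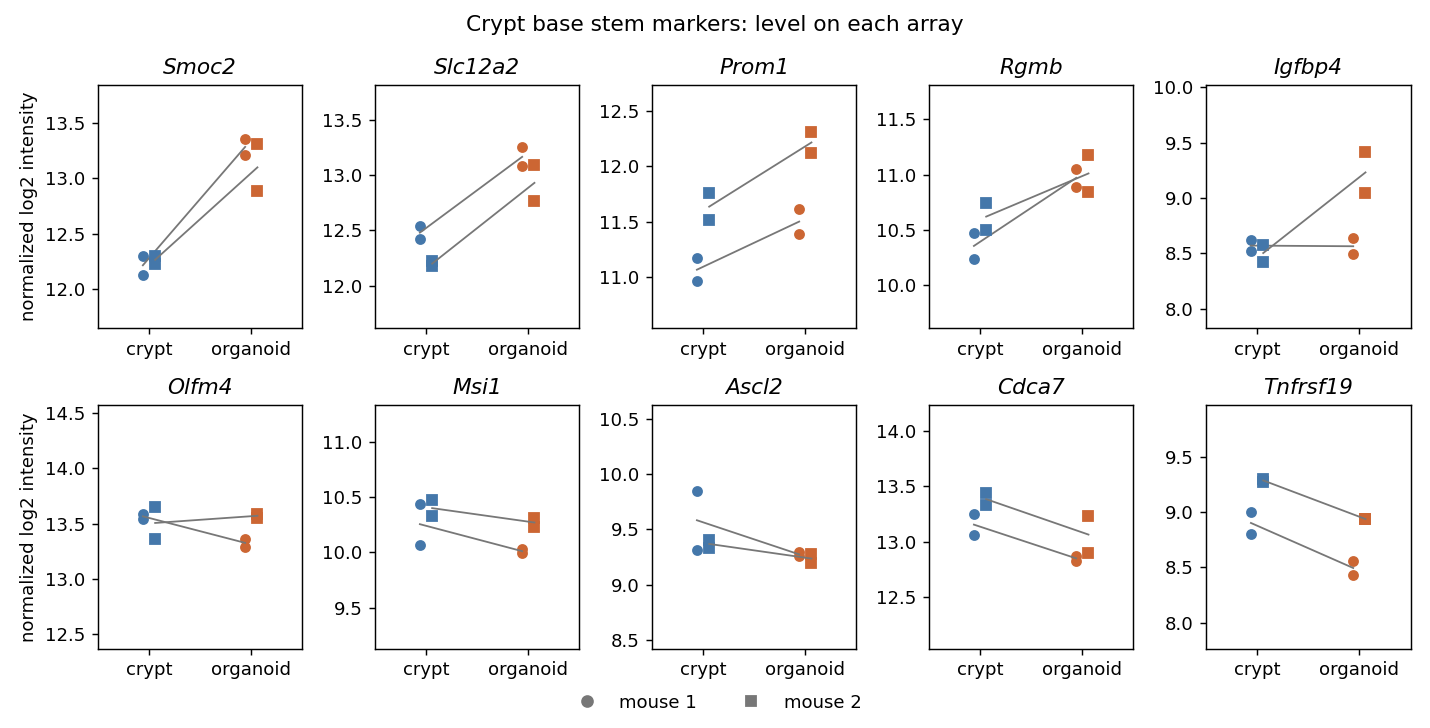
Normalized log2 intensity of each marker's brightest tested probe in crypt (blue) and organoid (orange) on the 4 arrays; circles are mouse 1, squares mouse 2, and lines join each mouse's 2 means. Every panel spans the same number of log2 units, centred on its own values. The lines rise in both mice for Smoc2, Slc12a2, Prom1 and Rgmb, fall in both for Msi1, Ascl2, Cdca7 and Tnfrsf19, and part ways for Igfbp4 and Olfm4.

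Tnfrsf19 and Rgmb encode membrane proteins that take part in signalling. Tnfrsf19, also called Troy, is a receptor of the tumour necrosis factor family and a Wnt target in crypts. Its crypt levels (A_51_P399305, mm9 chromosome 14, 61582948 to 61583007, minus strand) were 9.00 and 8.80 in mouse 1 and 9.27 and 9.30 in mouse 2. Organoids gave 8.43 and 8.55 in mouse 1 and 8.94 and 8.93 in mouse 2. Organoid levels were lower within each mouse, and the tissues overlapped between mice, with mouse 2 higher in both. Tnfrsf19 had the lowest log2 ratio of the 10, -0.38 ± 0.04 (unadjusted p = 0.031, adjusted p = 0.136), with a 95% interval from -0.71 to -0.05. Its second probe, 61593290 to 61593349, did not rise well above background in the 8 channels and was not tested.

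Rgmb encodes a co-receptor for bone morphogenetic proteins that also binds neogenin, the product of Neo1. Its 3 probes lie within a few kilobases on mm9 chromosome 17 (minus strand) and did not give 1 answer. The first 30 bases of each are shown for their difference in composition, with runs of 8 or more A or T in capitals.
Rgmb A_51_P501757, 15941859 to 15941918: aagcaaataggctatagcttttcacgggtc
Rgmb A_52_P620154, 15940735 to 15940794: ttatagatttaccctgtattcctataacca
Rgmb A_52_P515869, 15943973 to 15944032: TATATATTgtcATAATATATTgagtgaaaa

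At the bright probe, A_51_P501757, the crypt levels were 10.47 and 10.24 in mouse 1 and 10.74 and 10.50 in mouse 2. In organoids they were 10.89 and 11.05 in mouse 1 and 10.84 and 11.18 in mouse 2. The organoid levels were all higher, by a log2 ratio of 0.50 ± 0.16 (unadjusted p = 0.014, adjusted p = 0.086). The dimmer A_52_P620154, well above background in 4 of 4 crypt and 3 of 4 organoid channels, was at -0.10 ± 0.32, with 0.12 in mouse 1 and -0.33 in mouse 2. The third, A_52_P515869, was well above background in 0 of 8 channels; 20% of its letters are G or C, and 0.457% of all probes have fewer. The value of 0.50 is that of A_51_P501757 alone: the mean over both tested Rgmb probes was 0.20 (adjusted p = 0.462). Neo1 rose, with a log2 ratio of 0.76 ± 0.17 (adjusted p = 0.0311). It kept a positive ratio in all 11 alternative analyses and its call in 6 of them. Among the other partners, the receptor genes Bmpr1a and Bmpr2 were at 0.43 ± 0.05 and 0.29 ± 0.26, and Bmp2 at 0.29 ± 0.12. None of these 3 passed the test. The related Rgma, well above background in 2 of 4 crypt and 4 of 4 organoid channels and so tested only through the organoids, was at 0.53 ± 0.09 (adjusted p = 0.0688).

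Slc12a2 and Prom1 encode proteins of the cell membrane. Slc12a2 is the cotransporter that brings sodium, potassium and chloride into the cell and supplies chloride for secretion. At its single probe (A_51_P275527, mm9 chromosome 18, 58105712 to 58105771, plus strand) the crypt levels were 12.42 and 12.54 in mouse 1 and 12.18 and 12.22 in mouse 2. Levels in organoids were 13.08 and 13.25 in mouse 1 and 12.77 and 13.09 in mouse 2. Every organoid level was above every crypt level. The log2 ratio was 0.70 ± 0.03 (adjusted p = 0.0312), with a 95% interval from 0.38 to 1.03. Its activating kinases and its partner in secretion did not pass the test: Stk39 was at 0.46 ± 0.05, Oxsr1 at -0.12 ± 0.04, Wnk1 at 0.10 ± 0.18, and Cftr, the chloride channel, at -0.07 ± 0.04. Slc12a7, a cotransporter of the same family that carries potassium and chloride out of the cell, fell, with a log2 ratio of -1.16 ± 0.35 (adjusted p = 0.0173).

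Prom1 encodes the pentaspan membrane protein CD133, which marks stem cells and the dividing cells above them. Its crypt levels (A_51_P414072, mm9 chromosome 5, 44385331 to 44385390, minus strand) were 10.96 and 11.17 in mouse 1 and 11.51 and 11.76 in mouse 2. Organoids gave 11.61 and 11.39 in mouse 1 and 12.31 and 12.12 in mouse 2. Each mouse's organoids were above its own crypts, while the tissues overlapped between mice, with mouse 2 higher in both. The log2 ratio was 0.50 ± 0.11 (unadjusted p = 0.0116, adjusted p = 0.0772). The second probe, 44397410 to 44397469, gave 0.52 ± 0.12, closer to the first than the spread between mice. The 2 probes leaned opposite ways by dye: with the organoid in Cy5 the first was at 0.65 and 0.80 and the second at 0.23 and 0.53, and with the organoid in Cy3 the first was at 0.21 and 0.36 and the second at 0.64 and 0.67.

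**Figure D3:**
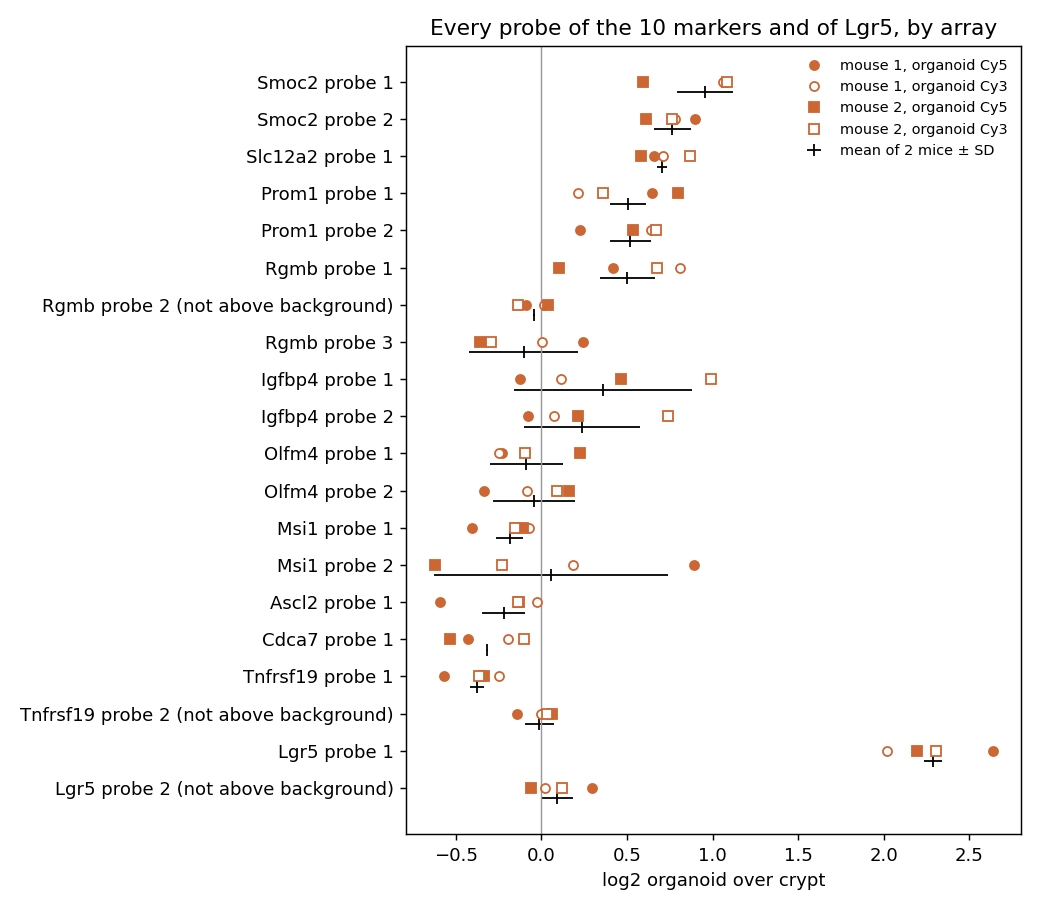
Log2 ratio of organoid over crypt at every probe of the 10 markers and of Lgr5. Filled symbols are arrays with the organoid in Cy5, open symbols in Cy3; circles are mouse 1 and squares mouse 2; black bars are the mean of 2 mice ± SD. Probe 1 of a gene is the one that represents it, and the numbers of the others are arbitrary. The second probes of Smoc2, Prom1, Igfbp4 and Olfm4 lie near the first, and those of Rgmb and Msi1 do not. The second probes of Tnfrsf19 and Lgr5 were above background in 0 of 8 channels.

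Msi1 and Cdca7 act inside the cell. Msi1 is an RNA-binding protein that represses translation of Numb, a regulator of Notch signalling, and its 2 probes on mm9 chromosome 5 (plus strand) disagreed. The first 30 bases of both are printed, with runs of A or T as above; the run at the end of the first goes on into the rest of that probe.
Msi1 A_51_P296866, 115904030 to 115904089: tgcctctctccctggtcgcTTTTATTTATT
Msi1 A_52_P566963, 115898129 to 115898188: gtatacccggaccttacctactcataacca

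The design assigns the first Msi1 probe to the gene's reference transcript and the second to a separate cDNA clone. At the first, the crypt levels were 10.44 and 10.07 in mouse 1 and 10.33 and 10.47 in mouse 2, and the organoid levels were 10.03 and 9.99 in mouse 1 and 10.23 and 10.31 in mouse 2. The tissues overlapped, and the log2 ratio was -0.19 ± 0.08 (adjusted p = 0.433). The second probe gave 0.89 and 0.19 on the arrays of mouse 1 and -0.62 and -0.23 on those of mouse 2. The mice thus had opposite signs there, and its mean of 0.06 ± 0.68 has the widest spread of any marker probe. Numb was at -0.05 ± 0.06, and the related Msi2 at 0.57 ± 0.29 (adjusted p = 0.0867).

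Cdca7 encodes a nuclear protein made by dividing cells, which works with the chromatin remodeller encoded by Hells. Its crypt levels (A_51_P202857, mm9 chromosome 2, 72324558 to 72324617, plus strand) were 13.25 and 13.06 in mouse 1 and 13.44 and 13.33 in mouse 2. Levels in organoids were 12.83 and 12.87 in mouse 1 and 12.90 and 13.23 in mouse 2. The last of these overlapped the crypts of mouse 1. The mice gave nearly the same mean, -0.31 and -0.32, but within each mouse the ratio with the organoid in Cy5 (-0.43 and -0.54) was lower than with the organoid in Cy3 (-0.20 and -0.10). The log2 ratio was -0.32 ± 0.01 (adjusted p = 0.192). Hells was at 0.42 ± 0.03 (adjusted p = 0.109) and the relative Cdca7l at -0.07 ± 0.27. Of 15 other genes of dividing cells, limma called 0. At an unadjusted p under 0.05, 1 was higher and 2 were lower, beside 14.4% and 13.2% of all genes. The fit over 4 arrays with a dye effect called 1 lower, beside 11.3% of all genes. The median of the 15 was -0.07, beside 0.02 for all genes. With median centring in place of loess it was 0.30, beside 0.17 for all genes. The highest of the 15, Cdk1, was at 0.37 ± 0.07 (adjusted p = 0.147) and the lowest, Mcm5, at -0.42 ± 0.01 (adjusted p = 0.108).

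In the order of their log2 ratios, Smoc2 led, followed by Slc12a2, Prom1, Rgmb, Igfbp4, Olfm4, Msi1, Ascl2, Cdca7 and Tnfrsf19. The mouse values of neighbours did not overlap between Smoc2 and Slc12a2 (a gap of 0.25), between Slc12a2 and Prom1 (0.20), between Ascl2 and Cdca7 (0.10, less than the SD of Ascl2) and between Cdca7 and Tnfrsf19 (0.06). The 5 pairs between Prom1 and Ascl2 overlapped. At the other Smoc2 probe, A_51_P213045, the mouse values of 0.84 and 0.69 overlapped those of Slc12a2, 0.68 and 0.73. The order was set by these same mouse values, and the gaps were not tested.

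The directions of some markers depended on the scaling. With each array centred on its median in place of loess, the median of all genes moved from 0.02 to 0.17, and in mouse 1 from 0.01 to 0.42. The markers' median then was 0.35, and 0.41 in mouse 1, beside 0.42 for all genes in that mouse. In mouse 2 the markers' median was 0.16, beside -0.02 for all genes, so under this scaling it was above 0 in both mice. Olfm4 changed sign, to 0.25, as did Msi1, to 0.01, and Cdca7, to 0.00. Set against the moved median of all genes, Olfm4 was above it, Msi1 and Cdca7 were below it, and Smoc2 (1.25) and Slc12a2 (1.00) were above it. No marker was called in that analysis, which called 0.837% of all genes higher and 0.605% lower. Over 11 alternative analyses with a test, Smoc2 was called in 9 and Slc12a2 in 6, Prom1 in 3, Rgmb and Tnfrsf19 in 2 each and Cdca7 in 1, while Ascl2, Olfm4, Igfbp4 and Msi1 were called in none. Lgr5 was called in all 11.

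**Figure D4:**
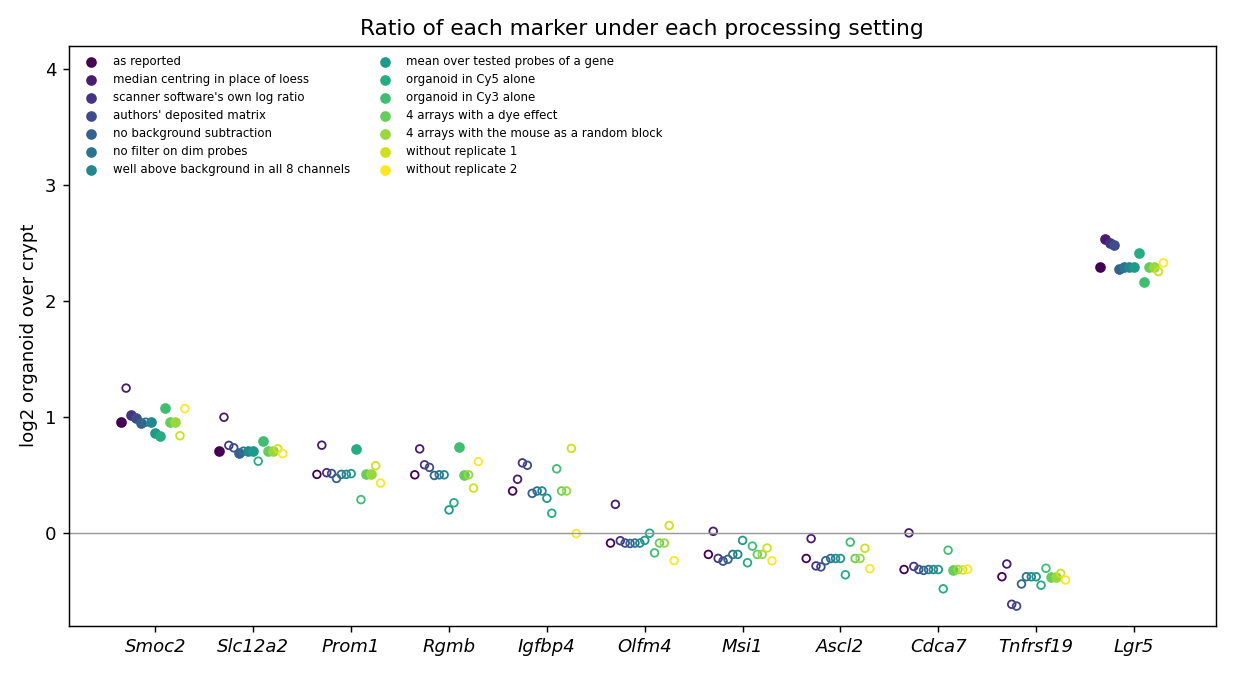
Log2 ratio of organoid over crypt of each marker and of Lgr5 as reported and under 13 alternatives (colours). Filled points have an adjusted p under 0.05, open points do not or, for a single mouse, have no test. Lgr5, Smoc2, Slc12a2, Prom1 and Rgmb stay above 0 and Tnfrsf19 and Ascl2 below 0 in all 13. Igfbp4, Olfm4, Msi1 and Cdca7 cross 0.

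Beside the 10 markers, 27 further genes of the crypt base signature were listed, of which 26 were tested. This list and those of partners and relatives were chosen with earlier results of these data known. Their counts and medians are therefore description only. Of the 26 tested, 6 rose and 2 fell, and 18 did not pass, with a median of 0.45. Of all genes, 5.43% were called higher and 5.49% lower. On all 4 arrays, 19 of the 26 were above 0, where 25.4% of all genes were. With median centring the counts higher and lower were 3 and 1, beside 0.837% and 0.605% of all genes. In the fit over 4 arrays with a dye effect they were 17 and 3, beside 12.6% and 11.3% of all genes. At an unadjusted p under 0.05 from limma they were 18 and 3, beside 14.4% and 13.2% of all genes. The highest were the growth factor gene Pdgfa at 3.06 ± 0.21 and Nrn1, which encodes a small membrane-anchored neuronal protein, at 2.61 ± 0.42, followed by the cholesterol esterification gene Soat1 at 1.40 ± 0.65. The lowest was the urea transporter gene Slc14a1, which fell, with a log2 ratio of -2.55 ± 0.27. Pdgfa, Nrn1 and Slc14a1 kept direction and call in all 11 alternatives, and Soat1 its direction in all 11 and its call in 9. Among 15 tested of 20 genes that work with the markers' products, 2 rose (Neo1 and the Wnt effector gene Tcf7l2, at 0.76 ± 0.04) and 0 fell, with a median of 0.15. At an unadjusted p under 0.05, and also in the fit with a dye effect, 5 were higher and 0 lower, and with median centring 0 were called; Tcf7l2 was called in 4 of the 11 alternatives. Of 21 relatives of the markers, 9 were tested, and Slc12a7 alone was called. At an unadjusted p under 0.05, 3 were higher and 2 lower, and the fit with a dye effect called 3 higher and 1 lower. The deposited matrix gave 2 higher and 1 lower, beside 4.21% and 4.99% of all genes, and median centring 0 in either direction.

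**Figure D5:**
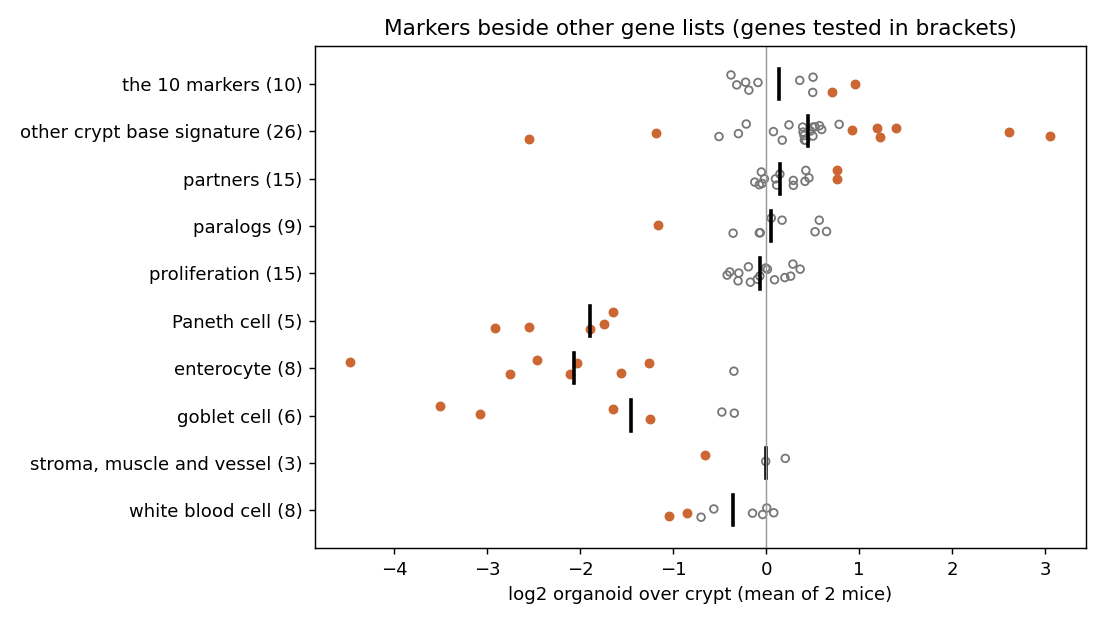
Log2 ratio of organoid over crypt (mean of 2 mice) of the 10 markers and of the tested genes of other lists; filled points have an adjusted p under 0.05 and black bars are list medians. The markers lie around 0, and the Paneth cell, enterocyte and goblet cell genes lie to the left.

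Marker transcripts of several differentiated cell types were lower in organoids. Of all genes tested, 5.43% were called higher and 5.49% lower. All 5 tested Paneth cell markers were lower in organoids (median -1.90), and their summed intensity was 486400 and 327300 in the crypts of mice 1 and 2 and 85320 and 72450 in the organoids. Lyz1, the Paneth cell lysozyme, was lowest at -2.92 ± 0.11. Of 8 enterocyte markers 7 were lower (median -2.07; summed intensity 493900 and 450600 in crypts, 172600 and 154600 in organoids), and of 6 goblet cell markers 4 were lower (336600 and 313400 against 76010 and 82430). Among 6 general epithelial markers, Krt18 was higher and Krt8, Krt19 and Cldn7 were lower, and their summed intensity was 496400 and 438000 in crypts and 375600 and 392300 in organoids. With median centring, 1 epithelial marker was called higher and 0 lower. The markers called lower then were 2 for Paneth cells, 4 for enterocytes and 2 for goblet cells, beside 0.605% of all genes. The medians of these 3 lists then were -1.43, -1.69 and -1.10. The 10 markers summed to 38010 and 39740 in crypts and 44080 and 47080 in organoids. Each sum is led by its brightest probes, and a probe not above background still adds to it. The sums therefore set the tissues side by side within a list, not the lists beside each other. Of 8 white blood cell markers, Cd3g and Cd52 were called lower, both well above background in 4 of 4 crypt and 0 of 4 organoid channels, so that they were tested only through the crypts. The median of the 8 was -0.35, and -1.13 with the deposited matrix, where 3 were called lower. Among the 3 of the 8 that were above background in all 8 channels, 0 were called, with a median of 0.01. That filter leaves out any marker whose signal was lost in organoids, so it cannot show whether the list fell. The 8 markers had sums of 2205 and 2197 in crypts and 1650 and 1803 in organoids. Of 12 markers of stroma, muscle and vessel, 3 were tested and Acta2 was lower (summed intensity 10600 and 8432 in crypts, 6988 and 6018 in organoids), while Des, Pdgfra, Pecam1, Cdh5, Dcn and Lum were well above background in 0 of 8 channels. Of 5 tested enteroendocrine markers 1 was lower and 0 higher, while at an unadjusted p under 0.05 limma gave 1 in each direction. Their summed intensity was 94150 and 88640 in crypts and 90880 and 123600 in organoids, higher in the organoids of mouse 2 alone. Of 3 tuft cell markers limma called 0, with 0 at an unadjusted p under 0.05 and 0 in the fit with a dye effect. Their sums were 1935 and 2151 in crypts and 1802 and 2777 in organoids. The part of these other cell types in the markers' ratios was not tested.

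Promoter sequence was given by RefSeq (GRCm38.p6) for 7 of the 10 markers, with 11 promoters of 300 bases; Smoc2, Slc12a2 and Msi1 had no entry. The core of the site bound by the Wnt effectors of the TCF/LEF family, CTTTGAA or CTTTGAT on either strand, was found for 1 of the 7, Tnfrsf19, in 1 of its 2 promoters, and in 8.65% of all 32851 promoters. The same Tnfrsf19 promoter held CAGCTG, the form of E-box searched for with Ascl2 in mind, which 16.3% of all promoters hold. No other marker promoter held either motif within its window.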

How the data were processed

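Crypt and organoid RNA of 2 mice were measured on 4 two-colour arrays of 1 slide and 1 scan. The authors deposited intensity values, the mean spot signal and median local background per dye, from Agilent Feature Extraction (10.2.1.3 per the file headers, 9.5.3 per the submitters' processing notes), and probe positions in mm9. Per the file headers, the scanner software also wrote a log10 ratio (Cy5 over Cy3), deposited as it stood. The authors' deposited matrix behaved as a log2 ratio of Cy5 over Cy3 (r from 0.978 to 0.991 with the scanner ratio, every column median 0); its centring stays unknown. Labels and design text name different RNA isolation methods, so that step is not settled.

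Background correction by normexp (offset 50) and loess within arrays were run in limma 3.58.1 (R 4.3.3), and outlier spots were left out after these steps. The dye labels gave the direction, organoid over crypt, and both arrays of a mouse were averaged. Tested probes were well above background in every channel of at least 1 tissue, leaving 21923 probes; the brightest tested probe stands for its gene, leaving 15538 genes. Mouse means were tested against 0 (lmFit, eBayes, two-sided, Benjamini-Hochberg), on code tested on simulated data. The few arrays limit the precision: an exact sign-flip test on 2 mice cannot give a p below 0.5, so limma's p rests on the spread of all genes. Median signals ran from 161 to 178 (Cy3) and from 266 to 312 (Cy5). Levels were taken after quantile normalization of average intensities between arrays.

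The named genes are the 10 markers, Lgr5, the largest called genes of each list and the partners and relatives of a marker. The members and lists were chosen with earlier results of these data known, and Cdk1, Mcm5, Igfbp2, Msi2, Rgma, Smoc1 and Cdca7l were named after their values were seen. Alternatives changed the scaling, the source of the ratio, the background, the filter, the probe rule, the dye orientation and the replicate unit. Exon and UTR positions were not assigned, since the annotation used here is of another build.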

Additional observations from a re-analysis of the deposited data

Results flagged for a closer look

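One of the 16 tested marker probes had an array far from the other 3: at the Smoc2 probe A_52_P646762, the array of mouse 2 with the organoid in Cy5 gave a log2 ratio of 0.59, against 1.06 to 1.08 on the others, a gap of 0.958 of the whole range, above the 95% critical value of Dixon's test for 4 values. Chance marks about 1 in 20 such groups. The array's ratio at the other Smoc2 probe, 0.61, was also the lowest of its 4.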

How the results depend on the processing

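As reported, 2 markers were called higher and 0 lower. The number higher was 0 with median centring and with no filter on dim probes, 1 with the scanner's own ratio and with the deposited matrix, and 4 with all 4 arrays fitted with a dye effect, which treats the dye swaps as replicates. The number lower was 2 with that fit and 1 where the mouse was a random block. The median over the markers, 0.14 as reported, was 0.07 to 0.35 over the alternatives with both mice, 0.23 without mouse 1 and, with the sign reversed, -0.12 without mouse 2. All genes called numbered 1697 as reported, 224 with median centring, 677 with no filter, 908 on the 2 arrays that carried the organoid in Cy3, 3709 with the dye effect and 3080 with the random block. All probes called numbered 2029, and 444, 637, 1044, 4427 and 3720 under the same alternatives. Smoc2 lost its call with median centring (adjusted p = 0.17) and no filter (0.0536), and Slc12a2 with these (0.256 and 0.055), the scanner's ratio (0.0687), the deposited matrix (0.0695) and the organoid in Cy5 alone (0.059). The cause was not tested. The planned random block with a dye effect was not run, because its correlation could not be estimated on 4 arrays; the random block without a dye effect was chosen after seeing the data. Crypt and organoid of a mouse share each array, so the pairing by mouse is part of every ratio.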
